A study of Saccharomyces cerevisiae with 6 samples.

Results

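The mitochondrial ribosomal proteins are described here through 53 genes, which are the 53 of 5490 named genes on the membranes whose symbol is MRPL, MRPS or RSM followed by a number. By name alone, 33 of these (MRPL) were counted with the large subunit and 20 with the small subunit, 9 with MRPS and 11 with RSM names. Each stood on a single spot of the 6084. The gene table lists 54 genes of this naming pattern, and MRPL15 was not analysed here. Transcripts were compared between 3 strains of budding yeast (Saccharomyces cerevisiae), all grown exponentially and labelled as without iron: Y18aft2delta (aft1aft2), which by its label lacks AFT2 in the aft1 background, Y18 (aft1), and CM3260 (wt). Aft1 and its relative Aft2 are the activators through which budding yeast turns on iron uptake under iron limitation. The 6 samples set aft1 against wt, aft1aft2 against wt, and the double against the single mutant (aft1aft2 against aft1), each in experiments 1 and 2, and each sample is 1 log ratio per spot. Which part of either gene the mutants lack, and whether the experiments were separate cultures, is not given in the sources used here. Hence p-values measure a spread between hybridisations that may be technical.

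The ratios were taken as log2 and turned to mutant minus reference, a direction that is likely from the order of strains in the titles and from iron uptake genes, but not stated. In this direction FIT2, a cell wall mannoprotein gene of iron uptake, stood at -5.85 ± 0.24 (SE, n = 2) and the iron oxidase gene FET3 at -3.43 ± 0.25 in aft1 against wt. If the order is reversed, every sign below turns and every size stays. The spots of the mutated genes do not check the labels: AFT1 stood at 0.15 and -0.09 in experiments 1 and 2 of aft1 against wt, and AFT2 at -0.40 and 1.955 in aft1aft2 against wt. Every value below is a log2 difference centred on the median of its column. Each error after ±, here and below, is the SE of the limma fit. It draws on the 6 hybridisations together and on the spread of all spots, so a gene has the same SE in its 3 comparisons. It is not the SE of a gene's 2 values alone. The 3 ratios of an experiment come from 3 shared hybridisations, 1 per strain, so a gene's 3 changes are not independent of each other.

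Mitochondria keep ribosomes of their own, which make a handful of membrane proteins of the respiratory chain and ATP synthase from the mitochondrial genome. In budding yeast nearly all proteins of these ribosomes are encoded in the nucleus, made on cytosolic ribosomes and imported, so their transcripts are ordinary nuclear messages. Some descend from bacterial ribosomal proteins and others are specific to mitochondria. Family names begin with u for a universal, b for a bacterial and m for a mitochondria-specific protein, followed by L or S for the subunit. The gene table of the R64 assembly gave a family name to 52 of the 53, and these names placed all 33 MRPL products in the large subunit and 19 of the 20 MRPS and RSM products in the small subunit, RSM22 having none. By the same names 33 have a bacterial counterpart and 19 are specific to mitochondria.

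None of the 53 genes passed the test in any comparison. With limma and an adjusted p of 0.05 as threshold, 0 of 53 passed in aft1 against wt, where 1.46% of all spots did. Likewise 0 passed in aft1aft2 against wt, where 4.44% of all spots did, and 0 in aft1aft2 against aft1, where 2.83% did. At an unadjusted p under 0.05 there were 4 genes in aft1 against wt (7.55%, beside 15.4% of all spots), 1 of them higher (8.07% of all spots were) and 3 lower (7.36%). The double mutant against wt gave 5 (9.43%, beside 21.4%), all higher, where 9.24% of all spots were higher and 12.2% lower. The double against the single mutant gave 6 (11.3%, beside 22.6%), again all higher, where 9.5% of all spots were higher and 13.1% lower. At least 2-fold the same way in both experiments were 0 of 53 in each comparison, where 3.93%, 5.37% and 4.68% of all spots were. A p that misses the threshold does not show that a transcript stayed level, and the intervals given further on show the range of change that each estimate allows.

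**Figure D1:**
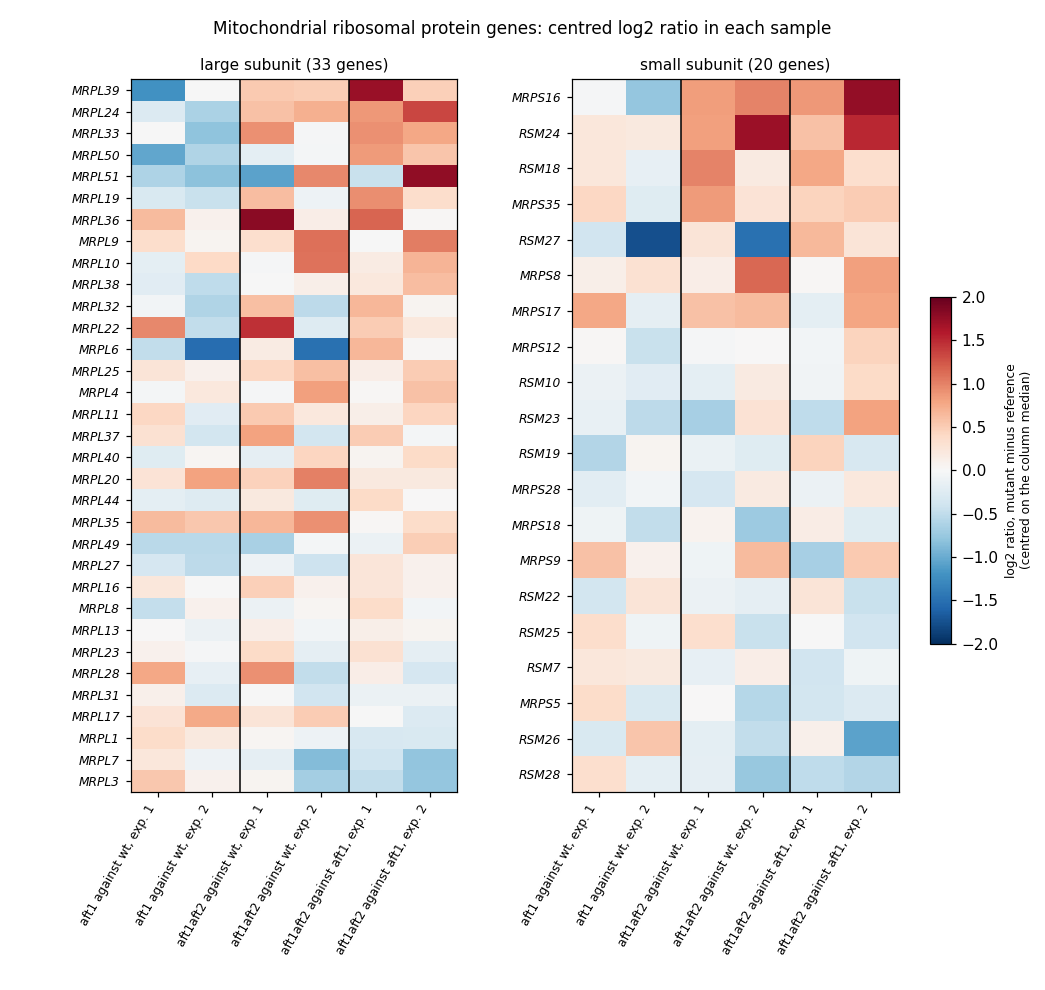
Centred log2 ratio (mutant minus reference) of each mitochondrial ribosomal protein gene in each of the 6 samples, large subunit on the left and small subunit on the right, genes ordered by their mean in aft1aft2 against aft1. Colours run from blue (low) to red (high) and saturate at 2 on either side, and few genes keep one strong colour across both experiments of a comparison.

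The typical gene lay close to the typical spot. In aft1 against wt the 53 genes had a median of 0.03, with quartiles at -0.33 and 0.20, beside a median of 0.01 and quartiles at -0.30 and 0.30 for all spots. For aft1aft2 against wt the median was 0.05, with quartiles at -0.15 and 0.50, beside 0.02, -0.36 and 0.38 for all spots. The median stood highest in aft1aft2 against aft1, at 0.20 with quartiles at -0.05 and 0.42, beside 0.03, -0.36 and 0.37. The genes also spread less than spots at large, with SDs of 0.37, 0.43 and 0.42 across genes in the 3 comparisons, beside 0.55, 0.66 and 0.64 over all spots. Means beyond 2-fold were found for 2, 1 and 4 of the 53 genes in the same order of comparisons, or 3.77%, 1.89% and 7.55%, beside 6.34%, 10.1% and 9.88% of all spots. These shares describe the group and were not tested.

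Of the 53 fitted changes, 27 lay above 0 in aft1 against wt and 29 in aft1aft2 against wt. Between the double and the single mutant (aft1aft2 against aft1) 39 did. The corresponding shares were 50.9%, 54.7% and 73.6%, beside 50.5%, 51.7% and 51.7% of all spots. Between the mutants 26 genes were above 0 in both experiments and 9 were below 0 in both, beside 33.4% and 33.2% of all spots. The other 18 were not on one side of 0 in both. These counts are relative to the column median: without centring 38, 50 and 47 of the 53 lay above 0, beside 4419, 5003 and 4177 of the 6084 spots. Against wt, 12 were above and 18 below 0 in both experiments for aft1, and 16 and 9 for aft1aft2. Across the 53 genes the experiments correlated with r = 0.312 for the single mutant and 0.0827 for the double mutant against wt, and with 0.227 between the mutants. Over all 6084 spots r was 0.553, 0.449 and 0.554. Points of one experiment share their hybridisations, and genes are not independent replicates.

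**Figure D2:**
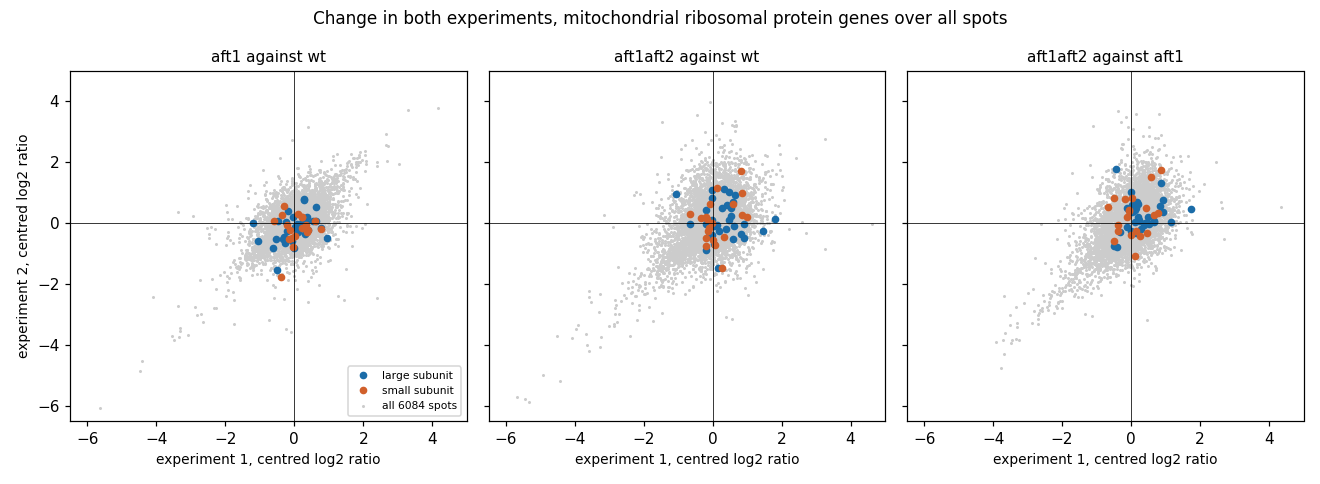
Centred log2 ratio in experiment 2 (vertical axis) against experiment 1 (horizontal axis) for the 3 comparisons, with all spots in grey, large subunit genes in blue and small subunit genes in orange. The ribosomal genes sit in the central cloud, within -1.76 to 1.80 on both axes, while many grey spots with large changes run along the diagonal.

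Both subunits were then set side by side. For aft1 against wt the 33 large subunit genes had a median of -0.03 and the 20 small subunit genes one of 0.03. For aft1aft2 against wt the medians were 0.21 for the large and -0.04 for the small subunit, a difference of 0.25. Between the mutants they were 0.24 and 0.11, a difference of 0.13. No difference kept its direction between experiments. In aft1aft2 against wt the large subunit stood 0.265 above the small in experiment 1, and the difference was -0.18 in experiment 2. The differences were 0.195 and -0.095 between the mutants, and -0.06 and 0.05 in aft1 against wt. The subunits were thus not separated beyond the spread between experiments in any comparison. Of the large subunit genes 27 of 33 lay above 0 in aft1aft2 against aft1, and of the small subunit genes 12 of 20. Within the small subunit the MRPS and RSM names had medians of 0.20 and 0.07 there, and of 0.27 and -0.15 in aft1aft2 against wt.

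The 33 genes with a bacterial counterpart and the 19 specific to mitochondria overlapped throughout. In aft1 against wt their medians were -0.10 and 0.09, and in aft1aft2 against wt 0.13 and -0.03. Between the mutants they were 0.30 and 0.17. In aft1aft2 against aft1, 19 of the 21 large subunit genes with a bacterial counterpart lay above 0 (median 0.36), as did 8 of the 12 in the small subunit (median 0.12), beside 51.7% of all spots. Of the mitochondria-specific genes 8 of 12 in the large subunit (median 0.18) and 4 of 7 in the small subunit (median 0.15) did. No gene of either class passed the test.

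Large subunit proteins with bacterial counterparts held several of the largest values. MRPL24, which encodes the counterpart of bacterial L28 (bL28m in the gene table), stood at 0.87 and 1.33 in experiments 1 and 2 of aft1aft2 against aft1. The mean was 1.10 ± 0.25 (SE, n = 2), with a 95% interval of 0.50 to 1.70 and a limma adjusted p of 0.0783. Its values were -0.28 and -0.64 in aft1 against wt, and 0.58 and 0.705 in aft1aft2 against wt. Each pair of values thus had one sign, with aft1 the lowest of the 3 strains in both experiments. MRPL39 (bL33m) had nearly the same mean in aft1aft2 against aft1, 1.10 ± 0.36, from unequal values of 1.73 and 0.47 (adjusted p = 0.158). In aft1 against wt MRPL39 was -1.21 in experiment 1 and -0.01 in experiment 2, while aft1aft2 against wt gave 0.52 and 0.485. The experiments of MRPL39 thus differed in both ratios that include aft1 and were close in the remaining one.

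MRPL33 (uL30m), which encodes a protein of a universal family, was 0.92 and 0.77 in aft1aft2 against aft1 (mean 0.85 ± 0.30, adjusted p = 0.179). Against wt the aft1aft2 values were 0.92 and -0.025, and the aft1 values -0.01 and -0.81. MRPL50 (bL9m) was the gene nearest to the threshold in aft1 against wt, at -1.04 and -0.60 (mean -0.82 ± 0.24, 95% interval -1.41 to -0.23, adjusted p = 0.178). It stood at 0.85 and 0.55 in aft1aft2 against aft1 and at -0.20 and -0.035 in aft1aft2 against wt, so that aft1 was again the low strain in both experiments. MRPL24, MRPL33, MRPL39 and MRPL50 all had means below 0 in aft1 against wt and above 0 in aft1aft2 against aft1, and both comparisons use the same aft1 hybridisations.

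MRPL6 (uL6m) had a lower mean than any other large subunit gene in aft1 against wt, -1.01 ± 0.40 from values of -0.50 and -1.53 (adjusted p = 0.310). In aft1aft2 against wt MRPL6 was 0.16 in experiment 1 and -1.485 in experiment 2. MRPL36 (bL31m) disagreed the other way in aft1aft2 against wt, at 1.80 and then 0.125 (mean 0.96 ± 0.41, adjusted p = 0.247). MRPL7 (uL5m) lay at the low end in the double mutant, at -0.40 and -0.79 against aft1 (mean -0.59 ± 0.27) and -0.18 and -0.875 against wt.

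Among large subunit proteins specific to mitochondria, MRPL35 (mL38) had matching values in both experiments. It stood at 0.63 and 0.54 in aft1 against wt (mean 0.59 ± 0.24, adjusted p = 0.313) and at 0.66 and 0.915 in aft1aft2 against wt (mean 0.78 ± 0.24, 95% interval 0.21 to 1.36, adjusted p = 0.135). Against aft1 the double mutant was at 0.02 and 0.36. MRPL20 (mL58) followed a like course, at 0.27 and 0.80 in aft1 against wt and 0.46 and 1.015 in aft1aft2 against wt, with 0.20 and 0.20 between the mutants. MRPL17 (mL46) was 0.27 and 0.76 in aft1 against wt and 0.26 and 0.505 in aft1aft2 against wt. For MRPL35, MRPL20 and MRPL17 both mutants lay above wt in both experiments, and both comparisons use the same wt hybridisations.

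MRPL3 (mL44) had the lowest mean of the 53 in aft1aft2 against aft1, -0.63 ± 0.27 from -0.49 and -0.77 (adjusted p = 0.237), beside 0.54 and 0.08 in aft1 against wt. MRPL51 (mL43) differed most between experiments, at -0.45 and 1.77 in aft1aft2 against aft1 and at -1.07 and 0.965 in aft1aft2 against wt. Its aft1 against wt values were close together at -0.61 and -0.82. The experiments of MRPL51 thus differed in both ratios that include aft1aft2. In the R64 gene table MRPL51 overlaps the open reading frame YPR099C and MRPL19 overlaps YNL184C, so the values of both are uncertain to that extent, and which strand a spot reads is not stated.

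In the small subunit the highest means belonged to MRPS16 and RSM24. MRPS16 (bS16m), the counterpart of a bacterial protein, stood at 0.87 and 1.75 in aft1aft2 against aft1 (mean 1.31 ± 0.30, 95% interval 0.60 to 2.03, adjusted p = 0.0790). In aft1aft2 against wt MRPS16 was 0.84 and 0.985 (mean 0.91 ± 0.30, adjusted p = 0.154), and in aft1 against wt -0.03 and -0.78. RSM24 (mS35), whose product is specific to mitochondria, stood at 0.82 and 1.705 in aft1aft2 against wt (mean 1.26 ± 0.31, 95% interval 0.52 to 2.00, adjusted p = 0.0841). Against aft1 RSM24 was 0.59 and 1.50 (mean 1.05 ± 0.31, adjusted p = 0.131), with aft1 close to wt at 0.23 and 0.19. Both genes were highest in aft1aft2 in both experiments, and both had the larger value in experiment 2. With the aft1aft2 hybridisation of experiment 1 left out, RSM24 passed the test in aft1aft2 against wt (1.71, adjusted p = 0.0293), and RSM24, MRPS16 and MRPL51 passed in aft1aft2 against aft1 (adjusted p = 0.0354, 0.0461 and 0.0273). There the double mutant rests on 1 hybridisation, and 9.19% and 8.27% of all spots passed.

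RSM27 (mS33) had the lowest mean of the 53 in aft1 against wt, -1.07 ± 0.43, from values of -0.39 and -1.76 (adjusted p = 0.313). In aft1aft2 against wt RSM27 was 0.26 and -1.485, a change of sign between experiments. In both comparisons with wt the low value came from experiment 2, as it did for MRPL6. RSM28 (mS46) was the lowest small subunit gene in aft1aft2 against aft1, at -0.51 and -0.58 (mean -0.54 ± 0.26, adjusted p = 0.279). RSM26 (mS42), which is related in sequence to the manganese superoxide dismutases, stood at 0.10 and -1.07 in that comparison. MRPS9 (uS9m) had the highest mean of the small subunit in aft1 against wt, 0.34 ± 0.33 from 0.59 and 0.08, and stood at -0.67 and 0.53 in aft1aft2 against aft1. MRPS5 (uS5m) was -0.37 and -0.27 between the mutants, with a mean of -0.32 ± 0.27. The changes of MRPS9 in aft1 against wt and of MRPS5 between the mutants were thus close in size to their errors.

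**Figure D3:**
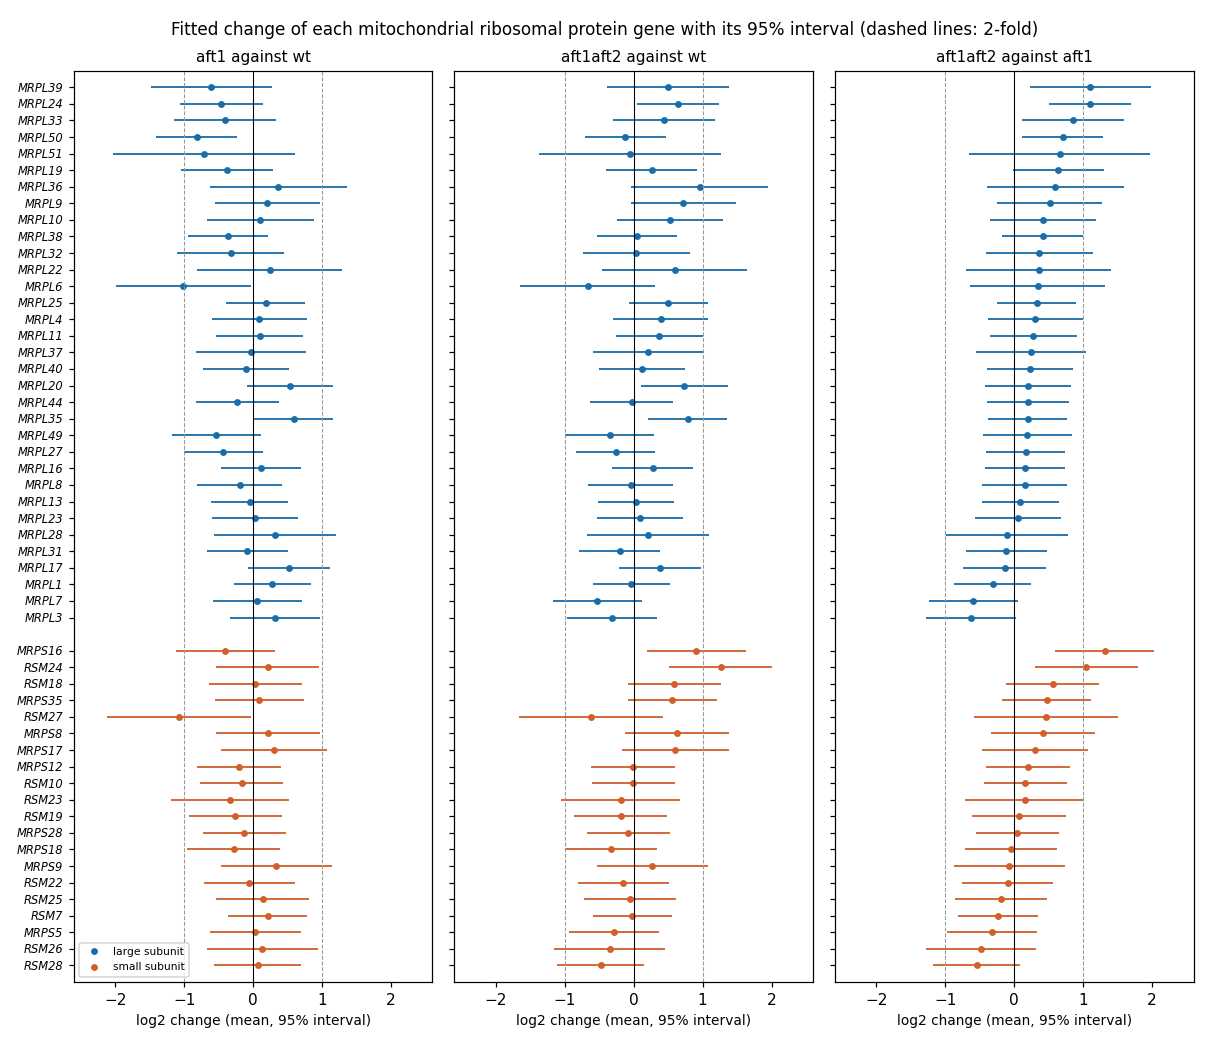
Fitted log2 change (points) with its 95% interval (lines) for each mitochondrial ribosomal protein gene in the 3 comparisons, large subunit in blue above and small subunit in orange below, with dashed lines at 2-fold. Most intervals cross 0, and those of 6 genes in aft1aft2 against aft1, with MRPS16, MRPL24 and RSM24 among them, lie above it without passing the test adjusted over all spots.

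For 27 of the 53 genes, 15 of the large and 12 of the small subunit, all 3 fitted changes lay within 0.5 log2 units of 0 (50.9%, beside 41.8% of all spots). MRPL13 (mL50) had the smallest changes, with its 6 sample values between -0.12 and 0.13. MRPL23 (uL13m) ranged from -0.185 to 0.38, MRPS28 (uS15m) from -0.33 to 0.21, RSM10 (uS10m) from -0.22 to 0.39 and RSM22, which encodes a methyltransferase-like protein, from -0.44 to 0.25. The largest fitted change of the 27 in either direction was that of RSM26, at -0.48 ± 0.33 in aft1aft2 against aft1. Means near 0 did not always come from like values in both experiments: RSM26 ranged from -1.07 to 0.56 over the 6 samples, MRPL28 from -0.485 to 0.92 and RSM23 from -0.66 to 0.81. The large subunit genes among the 27 were MRPL1, MRPL4, MRPL8, MRPL11, MRPL13, MRPL16, MRPL23, MRPL27, MRPL28, MRPL31, MRPL32, MRPL37, MRPL38, MRPL40 and MRPL44. Those of the small subunit were MRPS5, MRPS9, MRPS12, MRPS18, MRPS28, RSM7, RSM10, RSM19, RSM22, RSM23, RSM25 and RSM26.

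The remaining 10 genes, described here after their values were seen, lay past 0.5 log2 units in at least 1 comparison. MRPL9 (uL3m), for a core protein of the large subunit, stood at 0.34 and 1.105 in aft1aft2 against wt (mean 0.72 ± 0.31, adjusted p = 0.254) and at 0.35 and 0.05 in aft1 against wt. MRPS8 (uS8m) gave 0.13 and 1.145 in aft1aft2 against wt (mean 0.64 ± 0.31), and MRPL10 (uL15m) -0.03 and 1.085 (mean 0.53 ± 0.32). In aft1aft2 against wt all of these had their higher value in experiment 2. MRPS17 (uS17m) had like values of 0.59 and 0.625 in that comparison (mean 0.61 ± 0.32), and MRPL25 (mL59) 0.41 and 0.605 (mean 0.50 ± 0.24). RSM18 (bS18m) at 0.99 and 0.185 and MRPS35 (mS45) at 0.85 and 0.275 had the higher value in experiment 1. MRPL22 (uL22m) changed sign there, at 1.46 and -0.265. MRPL19 (uL11m) was 0.93 and 0.35 in aft1aft2 against aft1 (mean 0.64 ± 0.27, adjusted p = 0.233), and MRPL49 (bL21m) was -0.54 in both experiments of aft1 against wt (mean -0.54 ± 0.27, adjusted p = 0.389). All 10 were thus short of the threshold in the 3 comparisons.

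The 95% interval lay wholly within 2-fold of no change for 32 of the 53 genes in aft1 against wt, for 25 in aft1aft2 against wt and for 28 in aft1aft2 against aft1. Of all spots 48.1%, 42.6% and 42.2% were so bounded. It lay within 3-fold for 50, 47 and 46 of the 53 genes, beside 5429, 5065 and 5094 of the 6084 spots.

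Other proteins of the same ribosome carry names outside this pattern. Of 10 such large subunit genes 9 had a spot and of 15 small subunit genes 12 did, and 0 of these 21 passed limma's test in any comparison. Of all spots 1.46%, 4.44% and 2.83% passed. At an unadjusted p under 0.05 there were 0, 1 and 3 of the 21, beside 15.4%, 21.4% and 22.6% of all spots. Their medians in aft1aft2 against aft1 were -0.15 for the large and 0.28 for the small subunit, the opposite order to that of the 33 and 20 genes. RML2 (large subunit) was 0.03 and 2.02 there and MRP20 (large subunit) 0.07 and -1.82, so that both departed only in experiment 2. SWS2 (small subunit) stood at 1.37 and 0.43 and EHD3 (small subunit) at -0.80 and -1.01.

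The machinery that works with these ribosomes gave no call either. None of 12 mitochondrial translation factors, 14 mitochondrial aminoacyl-tRNA synthetases, 16 activators of single mitochondrial messages and 10 genes of ribosome assembly and mitochondrial transcription passed limma's test in any comparison. At an unadjusted p under 0.05 the synthetases held 0, 1 and 2 genes, the activators 3, 2 and 4, the factors 0, 0 and 1, and the assembly genes 0, 2 and 1. The activators, with the most such genes, had shares of 18.8%, 12.5% and 25%, beside 15.4%, 21.4% and 22.6% of all spots. TUF1, the mitochondrial elongation factor Tu gene, was 0.82 and 0.62 in aft1aft2 against aft1 (mean 0.72 ± 0.25, adjusted p = 0.165). SOV1, needed for expression of the mitochondrially encoded ribosomal protein Var1, stood at 0.80 and 1.655 in aft1aft2 against wt (mean 1.23 ± 0.28, adjusted p = 0.0743). MRM2, a ribosomal RNA methyltransferase gene, was -1.67 and -0.885 there (mean -1.28 ± 0.29, adjusted p = 0.0722). The activators had a median of 0.31 in aft1aft2 against aft1, the highest of the 4 lists.

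Among 32 nuclear genes of the respiratory chain and ATP synthase, ATP2, which encodes the catalytic beta subunit of ATP synthase, was lower in aft1aft2 against wt and against aft1. Its changes were -1.41 ± 0.26 and -1.90 ± 0.26 (limma adjusted p = 0.0422 and 0.0212). The other genes of the list did not pass in any comparison. ATP2 alone is 3.12% of the list, where 3.71% and 2.6% of all spots were called lower in these comparisons. SDH1 lay the other way without passing, at 0.90 and 1.965 in aft1aft2 against wt (mean 1.43 ± 0.31, limma adjusted p = 0.0624). Against aft1 the SDH1 values were 1.10 and 1.76 (mean 1.43 ± 0.31, limma adjusted p = 0.0768). Of 9 regulators, HAP1, a haem-responsive transcription factor gene, was lower in aft1aft2 against aft1 at -2.15 ± 0.24 (limma adjusted p = 0.0109), with values of -2.02 and -2.29. HAP1 alone is 11.1% of the 9, beside 2.6% of all spots called lower there. Against wt HAP1 was 1.16 and 1.55 in aft1 (mean 1.36 ± 0.24, adjusted p = 0.0652) and -0.86 and -0.725 in aft1aft2 (mean -0.80 ± 0.24, adjusted p = 0.134). HAP4, which activates respiratory genes, was 0.67 and 1.345 in aft1aft2 against wt without passing (adjusted p = 0.0997). HAP5 had the lowest mean of the 9 in aft1 against wt, from unlike values of -2.94 and 0.22 (mean -1.36 ± 0.70, limma adjusted p = 0.407). In aft1aft2 against wt HAP5 was -1.75 and 0.695, a change of sign between experiments.

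The medians of the mitochondrial and the cytosolic ribosomal protein genes lay apart in both comparisons with wt, while the ranges of the groups overlapped. In aft1 against wt the 53 mitochondrial genes had a median of 0.03, with 18 below 0 in both experiments, and the 126 cytosolic spots one of -0.95, with 115 below 0 in both. In aft1aft2 against wt the medians were 0.05 and -0.85, with 9 of 53 and 109 of 126 below 0 in both experiments. Limma called 0 and 0 mitochondrial genes lower in these comparisons, and 2 and 30 cytosolic spots, where 0.625% and 3.71% of all spots were called lower. In aft1aft2 against aft1 the mitochondrial median was 0.20 and the cytosolic one 0.12. Experiments correlated across the cytosolic spots with r = 0.742, 0.778 and 0.824 in the 3 comparisons, above the values of the mitochondrial genes. Many cytosolic ribosomal protein genes come as near-identical pairs whose spots may read each other. The difference between the groups is given as counts and was not tested.

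**Figure D4:**
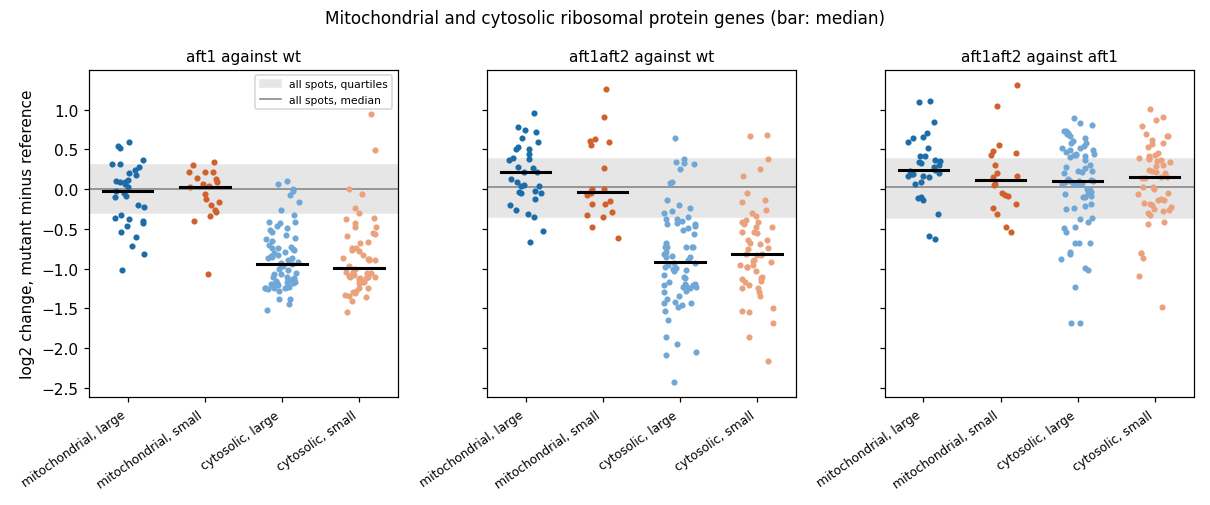
Fitted log2 change (vertical axis) of each mitochondrial and cytosolic ribosomal protein gene by subunit in the 3 comparisons, with a black bar at each group's median and the quartiles of all spots in grey. For the large and small subunit in aft1 against wt, the mitochondrial bars lie at -0.03 and 0.03 and the cytosolic bars at -0.94 and -0.99. In aft1aft2 against wt they lie at 0.21 and -0.04, and at -0.91 and -0.82. In aft1aft2 against aft1 they lie at 0.24 and 0.11, and at 0.10 and 0.15. The ranges of the mitochondrial and cytosolic genes overlap in all 3 comparisons.

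Neighbouring genes were read from the R64 gene table, whose coordinates are not printed because the build behind the membranes is unknown. Of the 53 genes 31 have a divergently transcribed neighbour on one side. MRPS12 (uS12m) and RSM19 (uS19m) are the only adjacent pair among the 53. In aft1aft2 against aft1 they stood at 0.20 and 0.07, and in aft1 against wt at -0.20 and -0.26. Beside RSM24, the neighbours NGG1 (divergent) and HMO1 (convergent) were at 0.73 and 0.21 in aft1aft2 against wt. Beside MRPS16, the neighbours RRP12 (divergent) and CIP1 (convergent) were at 0.74 and -1.17 in aft1aft2 against aft1, so the sides differed in sign, and none of these passed the test. Of 95 neighbouring genes with a spot, which include MRPS12 and RSM19, none passed the test for aft1 against wt (1.46% of all spots did). For aft1aft2 against wt 3 did (4.44% of all spots did), and between the mutants 1 did (2.83% of all spots did). The 4 were LYS12 next to RSM25, RPS0A next to RSM27 and RPS3 next to MRPL22, all lower in aft1aft2 against wt, and SSH1 next to MRPL27, lower in aft1aft2 against aft1. RSM25 itself was 0.34 and -0.445 in aft1aft2 against wt.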

How the data were processed

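Total RNA (5 µg per hybridisation) was read on nylon GeneFilters membranes by phosphor imaging after 3 days, per the labels. The authors deposited 1 log ratio per spot for 6 samples, taken here as log2 values because the base is not stated. The scaling of the membranes is unknown. The 6084 spots had no missing values. The platform table gave 1 symbol to 5523 spots and none to 561, and 100% of named spots matched the R64 gene table.

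Ratios were turned to mutant minus reference and centred on the column median. As deposited and so turned, the medians were 0.31 and 0.22, 0.40 and 0.625, and 0.09 and 0.42 in experiments 1 and 2 of aft1 against wt, of aft1aft2 against wt, and between the mutants. Within 0.01, the aft1aft2 to wt ratio was the sum of the other 2 at all 6084 spots of both experiments. Strain levels were therefore estimated by least squares, and limma 3.58.1 (R 4.3.3) fitted strain and experiment over 6 hybridisations with 2 residual degrees of freedom, p-values being two-sided and Benjamini-Hochberg adjusted over all spots. The experiment number pairs hybridisations because each ratio was formed within an experiment. The number of arrays limits the precision. The fit was tested on simulated data.

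The genes, lists and settings were chosen with earlier results of these data known. Named were the 5 highest and 5 lowest genes of each comparison, each subunit's extremes, and genes whose experiments differed by over 2 log2 units. These were 19 in all. Of the other lists, some of the called genes and some of the extremes were named. The 27 genes with small changes, adjacent genes and neighbours were chosen after their values were seen. No gene of the 53 had several spots. No set test was run, and sequences were not analysed here.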

Additional observations from a re-analysis of the deposited data

How the results depend on the processing

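Calls among the 53 genes stayed at 0 in all 3 comparisons with values as deposited, with columns scaled to one median absolute deviation and with quantile normalised levels. They also stayed at 0 with centring on other named spots, with robust empirical Bayes and with each comparison fitted on its own 2 ratios. Averaging spots by gene gave 0 calls too, but each of the 53 had a single spot, so that setting left their values unchanged. With no replicate block, 1 gene was lower in aft1 against wt (MRPL50), 2 were higher in aft1aft2 against wt (RSM24 and MRPL35) and 3 in aft1aft2 against aft1 (MRPL24, MRPL50 and MRPS16). That fit counts 1 degree of freedom more than the ratios hold, and called 9.70%, 15.5% and 15.6% of all spots. With 1 hybridisation left out the higher calls ranged from 0 to 0, from 0 to 1 and from 0 to 3 in the same order, and the lower calls were 0 throughout. With 1 hybridisation or 1 experiment left out, medians of the 53 ranged from -0.19 to 0.0308, from 0.0329 to 0.13 and from 0.14 to 0.34. Large minus small subunit medians ranged from -0.06 to 0.0917, from -0.18 to 0.27 and from -0.16 to 0.22. Without centring the medians were 0.29, 0.57 and 0.45, as the median of all spots moved to 0.27, 0.54 and 0.28, and the distance to it was 0.03, 0.03 and 0.17 in both settings. Of the 57 changes of the 19 named genes, 8 changed sign as deposited, none of them called. With experiment 1 or experiment 2 left out, 6 and 8 changed sign. With 1 hybridisation left out, from 3 to 6 did. Counts of all spots called differed by over 1.5 times from 89, 270 and 172 in several settings, with 58, 72 and 52 as deposited, 217 in aft1 against wt with columns scaled, 44, 157 and 112 on own ratios, and 590, 940 and 950 with no replicate block. Without single hybridisations they ranged from 4 to 233, from 75 to 559 and from 13 to 503.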
